A study of Mus musculus with 30 samples.

Results

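The constitutive proteasome genes were examined in astrocytes sorted from mouse brains after stroke or systemic inflammation. Members were the genes whose symbol starts with Psma, Psmb, Psmc, Psmd or Psme, without the immunoproteasome subunits Psmb8, Psmb9 and Psmb10. This gave 41 of 18193 genes with 1 symbol per probe set, and all 41 were among the 15726 genes that reached a log2 intensity of at least 5 on at least 3 arrays. They comprise 16 genes of the core particle (8 of the alpha ring and 8 of the beta ring), 17 of the regulatory particle (6 ATPases and 11 non-ATPases), 3 chaperones that help to assemble the regulatory particle and 3 activators. The remaining 2, Psmc3ip and Psme3ip1, share the prefix but encode no subunit. Psme2, partner of Psme1 in an activator ring, was not a member because its probe set also carries the symbol Psme2b.

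The proteasome degrades proteins that carry ubiquitin. Its core is a barrel in which alpha rings gate the entrance and beta rings hold the protease sites, formed in the constitutive particle by Psmb5, Psmb6 and Psmb7. The regulatory particle sits on the barrel's ends, binds ubiquitin chains, removes them and unfolds the substrate with its ring of Psmc ATPases. Inflammatory signals such as interferon induce the immunoproteasome, in which Psmb8, Psmb9 and Psmb10 take the places of Psmb5, Psmb6 and Psmb7.

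Astrocytes were isolated from young adult male mice carrying Tg(Aldh1l1-eGFP) OFC789Gsat on a Swiss Webster background, a transgene in which the promoter of the astrocyte gene Aldh1l1 drives green fluorescent protein, and sorted on that fluorescence. Stroke was modelled by 1 hour of middle cerebral artery occlusion (MCAO) followed by reperfusion, and its control was sham surgery. Inflammation was induced by intraperitoneal lipopolysaccharide (LPS) of Escherichia coli O55:B55 at 5 mg/kg, and its control was saline. Amplified RNA was hybridised to Affymetrix expression arrays. There were 5 MCAO and 4 sham arrays at 1 day, 3 MCAO and 3 sham arrays at 3 days, 3 MCAO and 3 sham arrays at 7 days, and 5 LPS and 4 saline arrays at 1 day. All 8 groups carry the transgene. The titles number the arrays of a group as biological replicates, but no label states that each array came from its own mouse. A p-value here thus covers the spread between arrays, which may be technical in part.

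Values are log2 of the deposited intensity, 1 probe set per gene (the one with the highest mean over the 30 arrays), and a difference is the mean of the treated or operated arrays minus that of their controls. A gene was called at an adjusted p under 0.05 in limma over the 15726 genes. The standard error (SE) rests on a variance pooled over the 8 groups. Levels of different probe sets are not comparable, so each difference was taken within a gene. Summed intensities of marker lists likewise serve to compare groups within a list, not lists with each other.

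The sorted cells carried astrocyte RNA: all 8 astrocyte markers were measured, and their summed linear intensity was 69099 or more in every group. Markers of other cells were measured too, with sums of at most 1745 for microglia and macrophages, 1027 for neutrophils and monocytes, 10950 for neurons, 36290 for oligodendrocytes, 12427 for oligodendrocyte precursors, 8620 for endothelial cells and 7667 for pericytes and smooth muscle. These sums add probe sets whose levels are not comparable, over lists of different length, so they do not give the share of each cell type. Median intensity was 68 to 73 on 29 arrays and 94 on LPS array 5, which stood apart from the other LPS arrays. The highest intensity on an array was 31338 to 35553 on 16 arrays and 20222 to 26595 on the other 14. All 1-day MCAO and sham arrays belonged to the brighter set and all 7-day arrays to the dimmer set. The 3-day, LPS and saline groups held arrays of both.

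One day after MCAO, 8 of the 41 members were higher than after sham surgery and 0 were lower. Among all genes 12.7% were called (6.49% higher and 6.17% lower). The 8 were 6 non-ATPase subunits of the regulatory particle (Psmd11, Psmd1, Psmd12, Psmd6, Psmd14 and Psmd3), the assembly chaperone Psmd5 and the beta ring subunit Psmb3, with differences between 0.53 and 0.85. The difference was positive for 38 of the 41 members (92.7%), against 41.6% of all genes. The median was 0.47, or 1.39-fold, for the members and -0.05 for all genes. Among the 3068 genes with a mean log2 intensity of at least 10 it was -0.16.

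**Figure D1:**
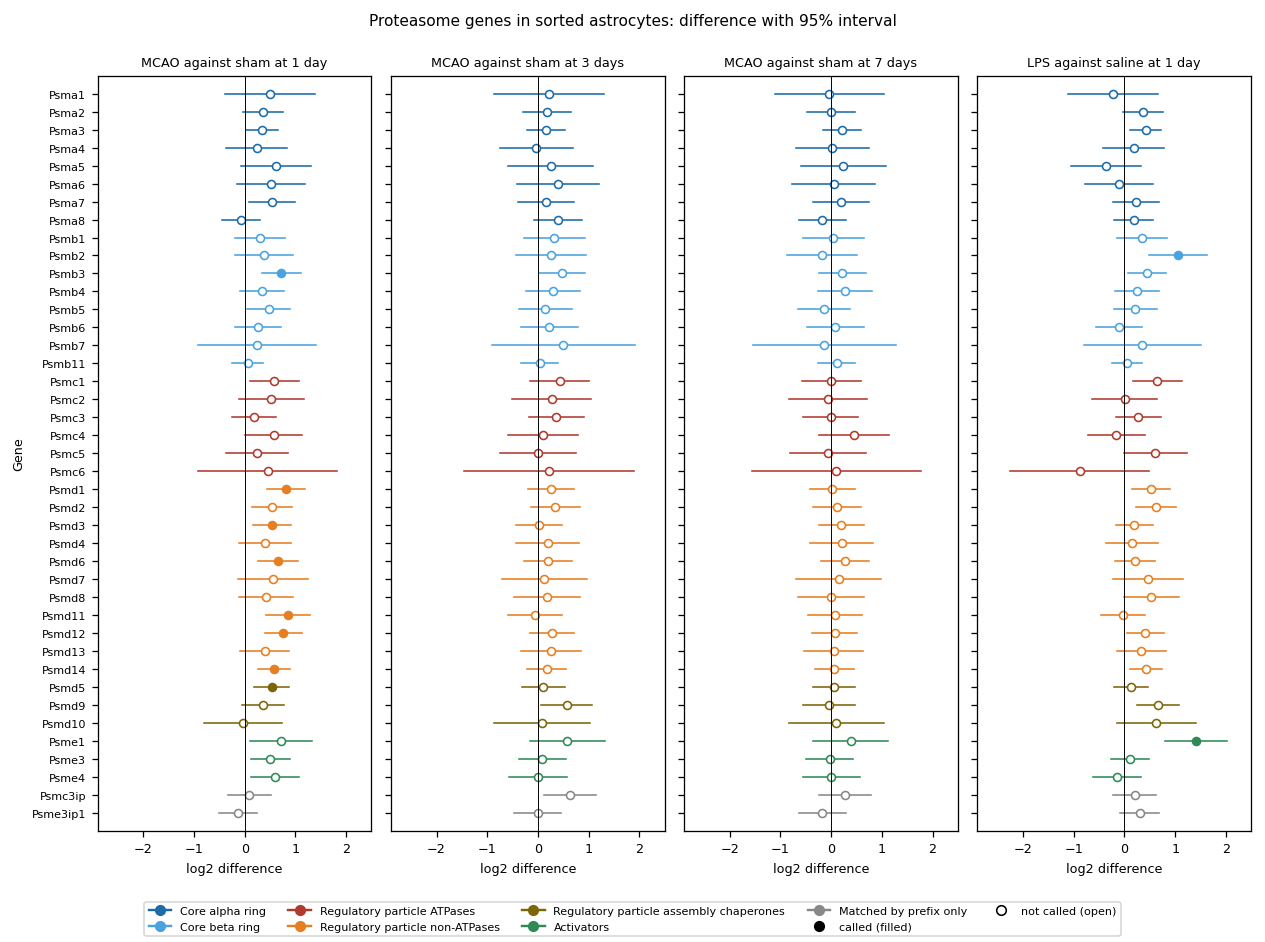
Difference of each of the 41 genes (rows, coloured by class) in the 4 comparisons with a control (panels), in log2 units with 95% intervals; filled points were called. At 1 day after MCAO nearly all points lie right of 0 and 8 are filled, no point is filled at 3 or 7 days, and Psmb2 and Psme1 are filled after LPS.

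The promoters of the 4 members with the largest differences at 1 day are shown because these genes lead the comparison, as the 250 bases before the start of each gene on its own strand (RefSeq, build GRCm38.p6). Capitals mark matches, on either strand, to 4 motifs of factors known to act at stress, housekeeping or interferon-inducible promoters: TGACNNNGC (core of the antioxidant response element, bound by the NRF factors), CCAAT (the CCAAT box), CCGGAAG (core of ETS factor sites) and the core of the interferon-stimulated response element.
Psmd11, chr11:80428365-80428614, plus strand: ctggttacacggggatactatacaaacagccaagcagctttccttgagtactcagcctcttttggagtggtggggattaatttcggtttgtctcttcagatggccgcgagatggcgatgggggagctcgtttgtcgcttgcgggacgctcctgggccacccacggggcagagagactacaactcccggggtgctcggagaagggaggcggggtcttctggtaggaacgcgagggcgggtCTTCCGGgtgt
Psmd1, chr1:86064369-86064618, plus strand: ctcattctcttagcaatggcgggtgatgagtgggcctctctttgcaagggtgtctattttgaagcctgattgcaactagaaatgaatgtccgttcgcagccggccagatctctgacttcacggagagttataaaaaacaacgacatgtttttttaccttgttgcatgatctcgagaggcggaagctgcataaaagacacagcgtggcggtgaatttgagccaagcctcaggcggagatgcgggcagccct
Psmd12, chr11:107479278-107479527, plus strand: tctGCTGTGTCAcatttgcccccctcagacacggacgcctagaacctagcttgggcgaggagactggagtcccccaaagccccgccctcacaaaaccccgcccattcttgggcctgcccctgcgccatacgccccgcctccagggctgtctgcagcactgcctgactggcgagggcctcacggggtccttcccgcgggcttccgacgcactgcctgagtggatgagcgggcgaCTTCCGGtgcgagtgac
Psmb3, chr11:97703184-97703433, plus strand: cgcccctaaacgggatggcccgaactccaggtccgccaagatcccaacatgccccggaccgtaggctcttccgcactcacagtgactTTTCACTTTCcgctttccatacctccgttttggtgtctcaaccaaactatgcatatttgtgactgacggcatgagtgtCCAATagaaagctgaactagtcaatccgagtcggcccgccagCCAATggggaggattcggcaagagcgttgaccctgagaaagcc
The Psmd11 window holds CCGGAAG on the minus strand, 11 to 5 bases before the start. The Psmd12 window holds the same motif on the minus strand 17 to 11 bases before the start, and TGACNNNGC on the minus strand at 247 to 239 bases. The Psmb3 window holds CCAAT at 85 to 81 and at 43 to 39 bases and the interferon-stimulated response element core at 163 to 154 bases. None of the 4 motifs is in the Psmd1 window.

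Of the 41 members, 34 were matched in the promoter table, with 37 promoters. CCGGAAG was in 13 of these 37 (35.1%), against 6.91% of 32851 promoters of the same length. CCAAT was in 15 (40.5%, against 33.8%), TGACNNNGC in 5 (13.5%, against 10.2%) and the interferon-stimulated response element core in 3 (8.11%, against 2.98%). The promoters with CCGGAAG include both of Psmc2 and that of Psmc3ip, which encodes no subunit. The 32851 promoters were not matched to those of the members in expression or base content. No matches overlap in the windows shown, and a match describes letters only. Genes with TGACNNNGC were Psmb5, Psmb6, Psmc6, Psmd12 and Psmd9, of which Psmd12 was called at 1 day.

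Psmd11, a subunit of the lid of the regulatory particle that contacts the core, had 13.19, 12.73, 12.82, 12.85 and 12.97 on the MCAO arrays, against 12.03, 12.02, 12.06 and 12.15 on the sham arrays. Every MCAO array lay above every sham array. The difference was 0.85 ± 0.21 (SE, adjusted p = 0.00714). Psmd11 has 6 other probe sets above the filter, whose differences at 1 day ran from -0.02 to 1.01, and with a probe set not marked as shared it was 0.50 and not called (adjusted p = 0.346).

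Psmd1, a large scaffold subunit of the base, had 11.33, 10.93, 11.45, 11.49 and 11.32 on the MCAO arrays, against 10.45, 10.60, 10.53 and 10.41 on the sham arrays. The groups did not overlap, although MCAO array 2 lay below the other MCAO arrays. The difference was 0.81 ± 0.18 (adjusted p = 0.0029). Psmd12, another lid subunit, had 10.84, 10.62, 10.84, 10.70 and 10.73 on the MCAO arrays, against 9.95, 9.95, 10.12 and 9.93 on the sham arrays. Again the groups did not overlap. The difference was 0.76 ± 0.18 (adjusted p = 0.00401).

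Psmd14, the metalloprotease that cleaves ubiquitin chains from the substrate, had 12.76, 12.51, 12.67, 12.69 and 12.74 on the MCAO arrays, against 12.10, 12.11, 12.05 and 12.15 on the sham arrays. The groups were well separated, with a difference of 0.57 ± 0.15 (adjusted p = 0.0127). Psmd3, a lid subunit, had 10.76, 10.77, 10.67, 10.80 and 10.83 on the MCAO arrays, against 10.23, 10.19, 10.30 and 10.20 on the sham arrays. Its groups were tight and did not overlap, yet with the pooled variance the call was near the threshold (0.54 ± 0.18, adjusted p = 0.0461). Psmd5, a chaperone that holds part of the base before assembly, had 9.05, 9.03, 9.04, 9.0 and 9.06 on the MCAO arrays, against 8.55, 8.43, 8.50 and 8.52 on the sham arrays. These MCAO arrays had the narrowest spread among the called members, with a difference of 0.53 ± 0.17 (adjusted p = 0.0319).

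The other called members were Psmb3, a beta ring subunit without a protease site (0.73 ± 0.18, adjusted p = 0.00768), and the lid subunit Psmd6 (0.66 ± 0.19, adjusted p = 0.0206). Their second probe sets differed by 0.96 and 0.63. Psmb3 lay between 11.34 and 12 on the MCAO arrays and between 10.84 and 11.23 on the sham arrays. Psmd6 lay between 11.65 and 11.87 on the MCAO arrays and between 10.89 and 11.20 on the sham arrays. In the plot of the called genes by array, each of the 8 has its MCAO arrays above its sham arrays, and MCAO array 2 is the lowest MCAO array for 6 of them.

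**Figure D2:**
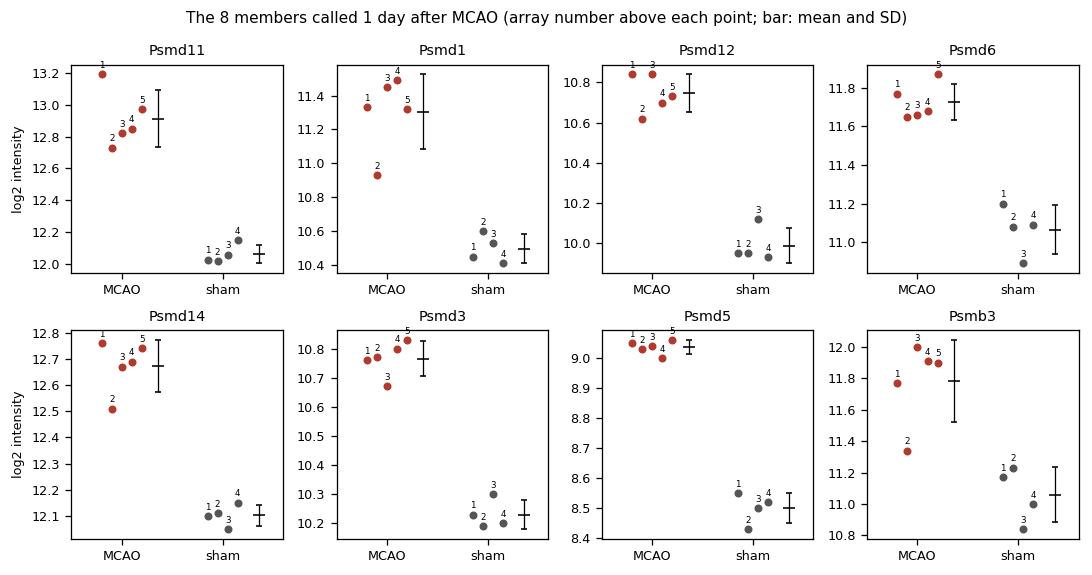
Log2 intensity of the 8 genes called at 1 day on each MCAO array (left) and sham array (right), with array numbers and the mean ± SD (n = 5 and 4). No MCAO array reaches down to a sham array in any panel, and the gap is smallest for Psmb3, where the lowest MCAO array is at 11.34 and the highest sham array at 11.23.

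The members that did not pass the test were nearly all on the positive side. MCAO and sham arrays did not overlap for 19 members, all higher after MCAO, against 12.1% of all genes higher and 15.2% lower without overlap. The 6 ATPases had differences between 0.18 (Psmc3) and 0.58 (Psmc1), and 0 were called. The 8 alpha ring genes ran from -0.07 (Psma8) to 0.61 (Psma5), also with 0 called. In limma over 35730 probe sets, a second Psma5 probe set differed by 0.64 and was called (adjusted p = 0.0466). The Psma5 probe set used here was not (adjusted p = 0.334), nor was any other of the alpha ring. Psma8 is a testis form and Psmb11 a thymus form of a core subunit, and their probe sets averaged 5.02 and 4.92, at about the filter. The activators Psme1, Psme4 and Psme3, which open the core without ubiquitin recognition, had differences of 0.71, 0.60 and 0.51 without overlap, and 0 of the 3 were called (adjusted p between 0.0739 and 0.125). The scaffold Psmd2 had 0.54 ± 0.19 (adjusted p = 0.0648). The lowest 3 were Psme3ip1 (-0.13), Psma8 (-0.07) and the chaperone Psmd10 (-0.03).

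How many members were called depended on the model, and so did the share of all genes. With only the MCAO and sham arrays of 1 day in the model it was 27 members (65.9%), against 32.9% of all genes. Array weights called 31 (75.6%, against 39.2% of all genes), and leaving out LPS array 5 called 13 (31.7%, against 18.7%). A model pairing the arrays by the number in their description, in which MCAO array 1 has no partner, left 3 members (Psmb3, Psmd1 and Psmd12). That share of 7.32% equals the 7.32% of all genes called in either direction in this model. All 3 members were higher, where 4.27% of all genes were called higher. Without sham array 3, 12.2% of the members and 12.2% of all genes in either direction were called, with 979 of the 1914 called genes higher. Psmb3, Psmd1 and Psmd12 were called in every model run, whereas Psmd3 and Psmd5 lost the call whichever of the 9 arrays was left out and Psmd6 without sham array 2 or 3.

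Markers of other cells were read beside these values, and their part in the result was not tested. Cd68 was higher after MCAO by 1.98 (adjusted p = 9.14e-06), with 6 of 10 microglia and macrophage markers positive (median 0.11) and a sum of 972 to 1745 after MCAO and 864 to 1609 after sham surgery. S100a8 was higher by 0.87 (adjusted p = 0.0469), with 5 of 8 neutrophil and monocyte markers positive (median 0.04) and a sum of 450 to 489 after MCAO and 405 to 459 after sham surgery. Cnp was lower (-0.69, adjusted p = 0.0195), with 6 of 8 oligodendrocyte markers negative (median -0.26) and a sum of 12604 to 28270 after MCAO and 16797 to 36290 after sham surgery. Each of these 3 lists thus held 1 called marker, and its sums overlapped between the groups. Vwf was higher by 1.57 (adjusted p = 0.0395), with 5 of 8 endothelial markers positive (median 0.17). Tagln was higher by 1.53 (adjusted p = 0.00891), while 5 of 7 pericyte and smooth muscle markers were negative (median -0.14). Of the neuron markers 0 of 9 were called (median -0.16), and of the oligodendrocyte precursor markers 0 of 7 (median 0.16). The sums of these 4 lists overlapped between the groups as well. Among the 8 astrocyte markers Gfap was higher by 1.69 (adjusted p = 0.00487) and the other 7 had negative differences, of which Slc1a3 was called (-0.52, adjusted p = 0.0165). The astrocyte median was -0.20, with sums of 113144 to 128965 after MCAO and 125500 to 132528 after sham surgery. In sorted bulk RNA, fewer cells of a type and less RNA per cell cannot be told apart.

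The core was then set against the regulatory particle. At 1 day, 1 of 16 core members and 6 of 17 regulatory particle members were called, all higher. Among all genes 12.7% were called (6.49% higher), so the core count was near the share of all genes called higher. The 6 were all non-ATPases, and 0 of the 6 ATPases were called. Median differences were 0.35 for the core and 0.54 for the regulatory particle. The core median was thus lower by 0.19 (-0.19). For each array, the mean of the core members minus that of the regulatory particle members was taken after centring every gene on its mean over the 30 arrays. This value was -0.19, -0.16, -0.27, -0.21 and -0.26 on the MCAO arrays, against -0.08, -0.02, -0.01 and -0.08 on the sham arrays. Every MCAO array was below every sham array, with means of -0.22 ± 0.05 (SD, n = 5) after MCAO and -0.05 ± 0.04 (SD, n = 4) after sham surgery. The core mean includes Psma8 and Psmb11, whose probe sets lay at about the filter and differed by -0.07 and 0.06. They draw the core mean toward no change, and the per-array value is given only with them. Without them the core median was 0.36. No test was made of a score over the members, and the gap between the medians rested on the probe set used, since it was -0.05 with the mean of all probe sets of a gene and -0.26 with probe sets not marked as shared.

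At the later times the gap between core and regulatory particle differed little between MCAO and sham arrays. The difference of the medians was 0.04 at 3 days, where it was -0.11 on the dimmer arrays and 0.29 on the single pair of brighter ones. It was -0.03 at 7 days and -0.11 after LPS. The per-array value averaged 0.12 ± 0.08 after MCAO and 0.07 ± 0.14 after sham surgery at 3 days (SD, n = 3 each). At 7 days it averaged 0.14 ± 0.07 after MCAO and 0.19 ± 0.14 after sham surgery (SD, n = 3 each). After LPS it was -0.05 ± 0.16 (SD, n = 5), against -0.01 ± 0.12 after saline (SD, n = 4). All these groups overlapped.

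**Figure D3:**
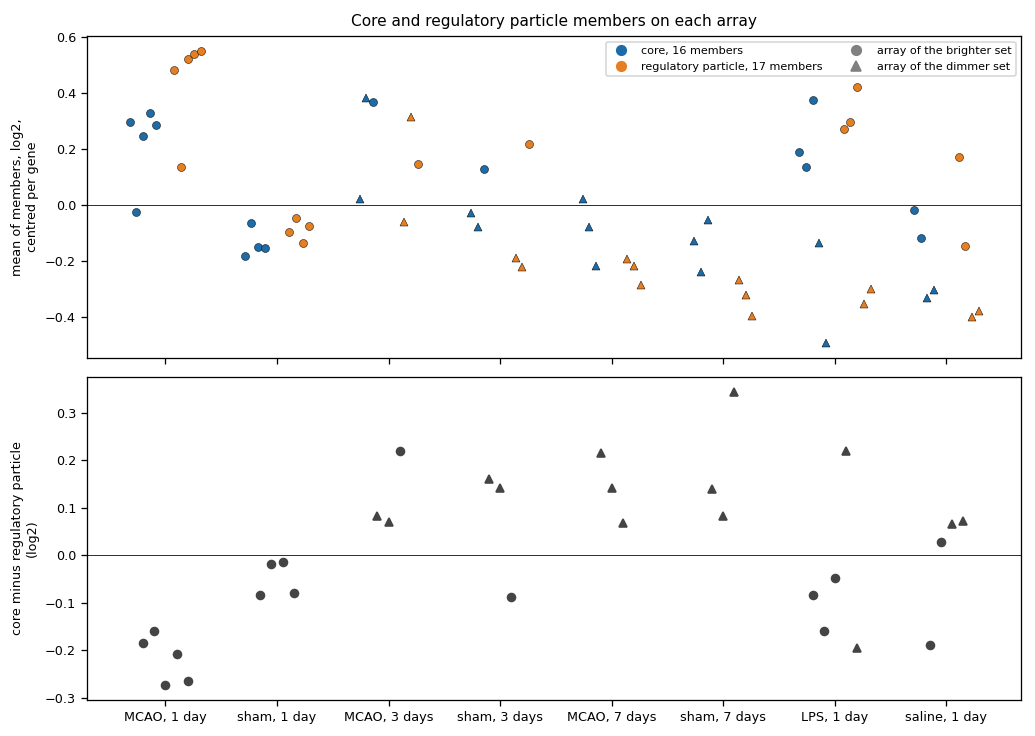
Upper panel: mean of the 16 core (blue) and 17 regulatory particle (orange) genes on each array, in log2 units after centring each gene on its mean over the 30 arrays. Lower panel: core minus regulatory particle on each array. Circles are arrays of the brighter set and triangles of the dimmer set. At 1 day the 5 MCAO arrays (-0.27 to -0.16) lie below the 4 sham arrays (-0.08 to -0.01) in the lower panel, and in the other comparisons the groups overlap.

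At 3 days after MCAO, 0 of the 41 members were called by limma, where 0.674% of all genes were, and 3 (7.32%) had an unadjusted p under 0.05, all with a positive difference, against 9.53% of all genes (5.56% with a positive difference). The difference was positive for 38 members, against 51.8% of all genes, and the median was 0.22 for the members and 0.01 for all genes. The highest values were those of Psmc3ip (0.64), a partner of meiotic recombinases, Psme1 (0.58) and the chaperone Psmd9 (0.57), and the lowest was Psmd11 (-0.06). Psmd9 had 8.13, 8.75 and 8.43 on the MCAO arrays, against 7.87, 8.06 and 7.68 on the sham arrays, without overlap but not called (adjusted p = 0.413). Arrays did not overlap for 5 members, all higher after MCAO (5.74% of all genes). The median moved with single arrays: it was 0.12 without sham array 2, 0.13 without MCAO array 2 and 0.33 without MCAO array 1 or sham array 3, and with each array left out in turn 31 to 40 of the 41 differences were positive. It was 0.30 on the dimmer arrays, and 0.09 on the brighter pair, where 24 were positive.

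Most marker lists of other cells were also on the positive side at 3 days, and their part was not tested. All 8 endothelial markers had positive differences (median 0.26, 0 called), with sums of 766 to 978 after MCAO and 611 to 661 after sham surgery, without overlap. All 8 oligodendrocyte markers did too (median 0.93, 0 called, sums of 16614 to 21431 after MCAO and 10327 to 24169 after sham surgery). The same held for all 8 neutrophil and monocyte markers (median 0.18, 0 called, sums of 437 to 532 after MCAO and 372 to 466 after sham surgery). In both of these lists the sums of the groups overlapped. Tagln was higher (2.46, adjusted p = 0.0147), with 5 of 7 pericyte and smooth muscle markers positive (median 0.16). Of the microglia and macrophage markers 8 of 10 were positive, of the neuron markers 7 of 9 and of the oligodendrocyte precursor markers 6 of 7, with medians of 0.17, 0.24 and 0.53 and 0 called. Of the 8 astrocyte markers 2 were positive (median -0.10, 0 called).

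At 7 days after MCAO, 0 members were called by limma, where 0.0254% of all genes were. At an unadjusted p under 0.05 there were 0 members as well, against 2.62% of all genes (2.24% with a positive difference). Differences ran from -0.18 (Psme3ip1 and Psmb2) to 0.45 (the ATPase Psmc4), with 30 of 41 positive and a median of 0.05. Among all genes 48.8% were positive and the median was -0.01. Psme1 had 9.65, 9.27 and 9.32 on the MCAO arrays, against 9.24, 8.73 and 9.12 on the sham arrays. These values did not overlap, and the difference of 0.39 ± 0.36 was not called (adjusted p = 1). It was 1 of 3 members without overlap, with Psma3 and Psmd6, all higher after MCAO (9.65% of all genes). With quantile normalisation 22 of 41 differences were positive and the median was 0.01, and with single arrays left out 22 to 34 were positive and the median was 0.02 to 0.09. All 7 oligodendrocyte precursor markers had positive differences at 7 days (median 0.89), of which C1ql1 was called (1.81, adjusted p = 6.21e-05). Their sum was 5228 to 6457 after MCAO and 2909 to 3746 after sham surgery, without overlap. Of the pericyte and smooth muscle markers 6 of 7 were positive (median 0.47, 0 called, sums of 3885 to 4671 after MCAO and 3256 to 3548 after sham surgery), also without overlap. Of the 8 astrocyte markers 7 were positive (median 0.08, 0 called, sums of 85469 to 94029 after MCAO and 75691 to 83072 after sham surgery), again without overlap. The part of these 3 lists was not tested.

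The catalytic subunits were not called in any comparison with all 30 arrays weighted equally in 1 model, although other models called some of them at 1 day. Psmb5, which carries the chymotrypsin-like site, had 12.11, 11.63, 12.12, 12.24 and 12.37 on the MCAO arrays of 1 day, against 11.66, 11.72, 11.54 and 11.56 on the sham arrays. MCAO array 2 lay among the sham arrays and the other MCAO arrays lay above them. The difference was 0.47 ± 0.21 (adjusted p = 0.148), and it was called with only these groups in the model (adjusted p = 0.0224), without LPS array 5 (adjusted p = 0.0144) and with array weights (adjusted p = 5.24e-05). At 3 days Psmb5 had 11.87, 12 and 11.77 on the MCAO arrays, against 11.60, 11.60 and 12 on the sham arrays, with overlap (0.15 ± 0.25, adjusted p = 0.999). At 7 days it had 11.53, 11.70 and 11.30 on the MCAO arrays, against 11.62, 11.69 and 11.64 on the sham arrays, again with overlap (-0.14 ± 0.25, adjusted p = 1). On the LPS arrays it had 11.95, 12.11, 11.86, 11.91 and 10.69, against 11.82, 11.24, 11.42 and 11.46 on the saline arrays. LPS array 5 was the lowest of these 9 and the other LPS arrays the highest. The difference was 0.22 ± 0.21 (adjusted p = 0.647), and 0.47 without overlap when LPS array 5 was left out (adjusted p = 0.0605). With array weights it was called (0.50, adjusted p = 0.0413).

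Psmb6, with the caspase-like site, had 10.91, 10.66, 10.90, 11.12 and 11.09 on the MCAO arrays of 1 day, against 10.63, 10.78, 10.65 and 10.65 on the sham arrays. MCAO array 2 and sham array 2 overlapped, and the difference was 0.26 ± 0.22 (adjusted p = 0.601), called with array weights (0.28, adjusted p = 0.0383). At 3 days it had 11.18, 11.92 and 12.04 on the MCAO arrays, against 11.29, 11.32 and 11.84 on the sham arrays. At 7 days it had 11.33, 11.05 and 11.17 on the MCAO arrays, against 11.29, 10.80 and 11.21 on the sham arrays. Both pairs of groups overlapped, with differences of 0.23 ± 0.27 (adjusted p = 0.978) at 3 days and 0.08 ± 0.27 (adjusted p = 1) at 7 days. On the LPS arrays it had 11.20, 11.33, 11.89, 11.01 and 10.35, against 11.33, 11.66, 10.99 and 11.10 on the saline arrays. They overlapped too (-0.11 ± 0.22, adjusted p = 0.848).

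Psmb7, with the trypsin-like site, had 11.84, 10.93, 11.90, 11.93 and 11.73 on the MCAO arrays of 1 day, against 11.53, 11.58, 11.15 and 11.43 on the sham arrays. MCAO array 2 was the lowest of the 9 and the other MCAO arrays the highest (0.25 ± 0.56, adjusted p = 0.914). At 3 days it had 12.02, 11.63 and 11.51 on the MCAO arrays, against 11.29, 11.03 and 11.35 on the sham arrays, without overlap (0.50 ± 0.69, adjusted p = 0.988). At 7 days it had 11.18, 11.75 and 10.68 on the MCAO arrays, against 11.11, 11.66 and 11.24 on the sham arrays, with overlap (-0.13 ± 0.69, adjusted p = 1). On the LPS arrays it had 12.45, 12.77, 9.65, 11.20 and 8.91, against 12.19, 9.03, 10.77 and 10.60 on the saline arrays. Values were thus low on LPS arrays 3 and 5 and on saline array 2, and the interval of the difference was wide (0.35, 95% interval -0.81 to 1.51, adjusted p = 0.806). It was 1.28 and called with array weights (adjusted p = 0.0306), and -0.63 on the dimmer arrays alone.

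One day after LPS, 2 of the 41 members were higher than after saline and 0 were lower, where 3.11% of all genes were called (2.37% higher). They were Psme1, a subunit of the interferon-inducible PA28 activator, and Psmb2, a beta ring subunit without a protease site. The difference was positive for 33 members, against 59.7% of all genes, and the median was 0.25 for the members and 0.07 for all genes. Arrays did not overlap for 1 member, Psmd9 (1.88% of all genes higher without overlap), and 10 members (24.4%) had an unadjusted p under 0.05, all positive, against 16.4% of all genes (10.2% positive). With each array centred on its median, the median of all genes moved to -0.03 and that of the members to 0.15. The share of called genes that were higher also depended on the scaling, with 372 of 489 as deposited, 255 of 417 after median centring and 332 of 505 after quantile normalisation.

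The promoter of Psme1, the member with the largest LPS difference, is shown for the same window as those above; none of the 4 motifs is in it, which says only that these letters are absent from these 250 bases.
Psme1, chr14:55578244-55578493, plus strand: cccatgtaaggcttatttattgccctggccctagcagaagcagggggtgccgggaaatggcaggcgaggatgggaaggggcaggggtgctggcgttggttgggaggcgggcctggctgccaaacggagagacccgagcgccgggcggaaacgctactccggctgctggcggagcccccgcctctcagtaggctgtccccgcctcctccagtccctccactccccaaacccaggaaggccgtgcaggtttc

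Psme1 had 10.17, 10.34, 10.97, 9.44 and 10.50 on the LPS arrays, against 8.58, 9.67, 9.0 and 8.25 on the saline arrays. LPS array 4 lay below saline array 2, and the other LPS arrays lay above all saline arrays. The difference was 1.41 ± 0.30 (adjusted p = 0.00633), or 2.66-fold. Psmb2 had 10.40, 10.12, 10.36, 9.34 and 9.99 on the LPS arrays, against 9.40, 9.06, 8.60 and 8.85 on the saline arrays. LPS array 4 lay just below saline array 1. The difference was 1.06 ± 0.28 (adjusted p = 0.0321).

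Neither call held with only the LPS and saline arrays in the model (adjusted p = 0.204 for Psme1 and 0.246 for Psmb2). Psme1 lost its call without saline array 4 (adjusted p = 0.0506), and Psmb2 lost its call without LPS array 1 or 2 or saline array 2, 3 or 4 (adjusted p 0.0542 to 0.105).

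**Figure D4:**
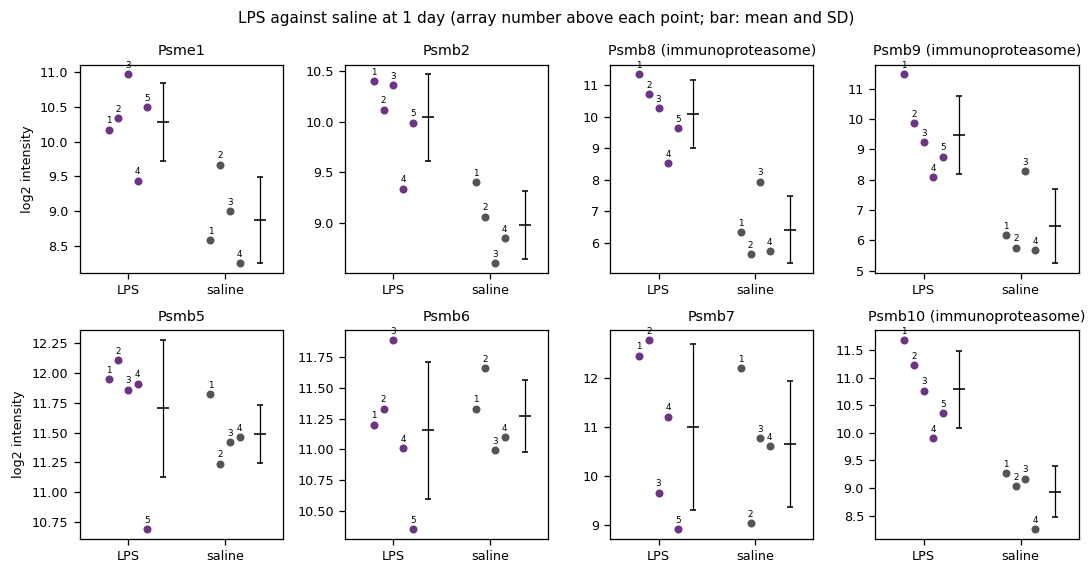
Log2 intensity on each LPS array (left) and saline array (right) of the called members Psme1 and Psmb2, the catalytic subunits Psmb5, Psmb6 and Psmb7 and the immunoproteasome subunits Psmb8, Psmb9 and Psmb10, with array numbers and the mean ± SD (n = 5 and 4); the vertical scales differ. LPS array 5 is the lowest of all 9 for Psmb5 (10.69), Psmb6 (10.35) and Psmb7 (8.91) but lies within the LPS group for Psmb8, Psmb9, Psmb10 and Psme1.

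LPS array 5 bore on these values. On it, 11 members were lower by more than 1 log2 unit than the mean of the other LPS arrays and 0 were higher by as much. These shares of 26.8% lower and 0% higher stood against 16.3% lower and 19.1% higher among all genes. The ATPase Psmc6 was at 5.39 there and between 10.77 and 11.21 on the other LPS arrays. The alpha ring gene Psma1 was at 7.20, against 10.39 to 11.03 on the other LPS arrays. With LPS array 5 kept, the other Psmc6 probe sets above the filter differed by 0.43 and -0.02 after LPS. The lowest difference among the members, that of Psmc6 with the probe set used (-0.88 ± 0.67), became 0.22 without that array. Without it, 38 of 41 differences were positive, the median was 0.29 for the members and -0.01 for all genes, and 3 members (7.32%, against 2.65% of all genes higher and 3.96% called either way) were higher: Psme1 (1.35, adjusted p = 0.0132), Psmb2 (1.08, adjusted p = 0.04) and Psmd9 (0.74, adjusted p = 0.0409).

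Most marker lists were on the positive side after LPS as well, and their part was not tested. All 8 neutrophil and monocyte markers had positive differences (median 0.29, 0 called, sums of 382 to 1027 after LPS and 342 to 465 after saline). Of the microglia and macrophage markers 9 of 10 were positive (median 0.22, 0 called, sums of 742 to 993 after LPS and 571 to 916 after saline). Of the endothelial markers 7 of 8 were positive (median 0.27, 0 called, sums of 499 to 1218 after LPS and 419 to 617 after saline). In all 3 lists the sums of the groups overlapped. Rgs5 was higher (1.98, adjusted p = 0.00603), the only called marker of another cell type, with 5 of 7 pericyte and smooth muscle markers positive (median 0.25, sums of 2010 to 6731 after LPS and 3712 to 5595 after saline). Of the oligodendrocyte markers 7 of 8 were positive, of the oligodendrocyte precursor markers 6 of 7 and of the neuron markers 5 of 9, with medians of 0.38, 0.32 and 0.06 and 0 called. Of the 8 astrocyte markers 5 were positive (median 0.03), and Gfap was called (1.87, adjusted p = 0.00747).

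Differences between the effects were tested as contrasts of contrasts. By limma 0 of the 41 members differed between the MCAO and LPS effects at 1 day (1.39% of all genes called), between the MCAO effects at 3 and 1 days (0.00636%), at 7 and 1 days (0.356%) or at 7 and 3 days (0%). At an unadjusted p under 0.05 there were 3 members (7.32%, against 12.8% of all genes) for MCAO against LPS, 1 (2.44%, against 5.99%) for 3 days against 1 day, 4 (9.76%, against 8.6%) for 7 days against 1 day and 0 (against 1.74%) for 7 days against 3 days. Counted in both directions, these shares lay near or below those of all genes. The 3 members for MCAO against LPS were all positive, where 4.84% of all genes had such a p and a positive difference. The 4 members for 7 days against 1 day were all negative, where 4.65% of all genes, of the 8.6%, were positive. The 1 member for 3 days against 1 day was negative, where 3.24% of all genes, of the 5.99%, were positive. The members' median for the 7-day effect minus the 1-day effect was -0.37, against 0.05 for all genes, and 38 of 41 were negative. Psmd1 had the lowest value of that contrast (-0.78), and Psmd11 that of the 3-day effect minus the 1-day effect (-0.90). These contrasts share the 1-day arrays. All 1-day MCAO and sham arrays were of the brighter set and all 7-day arrays of the dimmer set. Day and array set thus cannot be told apart in the 7-day effect minus the 1-day effect. A model with array weights called 13 members (31.7%, all lower) for 7 days against 1 day, where it called 20% of all genes (8.43% lower). It called 4 members (9.76%, against 13.5% of all genes) for MCAO against LPS and 1 (2.44%, against 1.65%) for 3 days against 1 day. A model with the compared groups alone called 7 (17.1%, all lower, against 4.6% of all genes lower and 9.77% either way) for 7 days against 1 day.

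The immunoproteasome subunits, set apart from the members, had larger differences after LPS. Psmb8 was higher by 3.69 ± 0.47 (adjusted p = 2.03e-05), Psmb9 by 3.01 ± 0.49 (adjusted p = 0.00039) and Psmb10 by 1.85 ± 0.29 (adjusted p = 0.000222). On the LPS arrays Psmb8 had 11.35, 10.72, 10.28, 8.53 and 9.63, against 6.34, 5.64, 7.94 and 5.73 on the saline arrays, with no overlap. After MCAO Psmb8 was higher at 1 day (1.52 ± 0.47, adjusted p = 0.0319). It had 6.97, 6.86, 7.34, 7.60 and 7.84 on these MCAO arrays, against 5.75, 5.75, 5.95 and 5.73 on the sham arrays. At 3 and 7 days it differed by 1.86 and 1.62, neither called. Psmb9 (0.77) and Psmb10 (0.37) were not called at 1 day after MCAO. The probe set shared by Psme2 and Psme2b differed by 1.10 ± 0.36 after LPS (adjusted p = 0.115) and by 0.50, 0.34 and 0.22 at 1, 3 and 7 days after MCAO.

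Genes around the proteasome were read from companion lists. Of 8 measured regulators of proteasome genes, the small MAF factors Maff (1.55 ± 0.43, adjusted p = 0.0151) and Mafk (0.91 ± 0.27, adjusted p = 0.0224) were higher 1 day after MCAO. Maff had 10.21, 9.53, 9.22, 9.87 and 9.34 on the MCAO arrays, against 7.18, 7.84, 9.08 and 8.23 on the sham arrays, with no overlap. Nfe2l1, the factor known to induce proteasome genes when proteasome activity falls, was not called (0.61 ± 0.41, adjusted p = 0.432). Nfe2l2, which drives antioxidant genes, was higher after LPS (1.08 ± 0.25, adjusted p = 0.0128) and had a difference of 0.25 at 1 day after MCAO.

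In the same lists, 0 of 7 other assembly factors and inhibitors and 0 of 5 proteasome-associated proteins were called in any of the 4 comparisons with a control. Of 9 shuttle and segregase factors, the ubiquitin shuttle Ubqln2 was lower after LPS (-1.0 ± 0.26, adjusted p = 0.0349). It had 11.38, 11.21, 11.69, 12 and 10.03 on the LPS arrays, against 12.30, 12.03, 12.41 and 12.29 on the saline arrays, and the lowest value was again that of LPS array 5. Its difference at 1 day after MCAO was -0.74 (adjusted p = 0.0669).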

How the data were processed

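Each array measured RNA of astrocytes sorted from 1 of 8 groups. The authors deposited 1 intensity per probe set and array on a linear scale, in whole numbers from 9 to 35553, normalised with RMA per the submitters' processing notes, which give no version. Log2 was taken here of the deposited intensities; the authors' background correction and summary over probes were kept, and scanner files were not used here. Of 45037 probe sets, 34945 carried 1 symbol, 932 several and 9160 none. The probe set with the highest mean stood for each of 18193 genes, and genes at log2 5 or more on at least 3 arrays were kept. The members had 87 such probe sets, 83 of them above that filter, and 20 members had several.

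The test was limma (version 3.58.1, R version 4.3.3), with 1 linear model over the 8 groups, 22 residual and 4.55 prior degrees of freedom, 2-sided, adjusted by Benjamini-Hochberg over all genes; the procedure was tested on simulated data. Precision is limited by the number of arrays. Members and lists were chosen with earlier results of these data known, so no p-value is given for a list or score. Values in full are given for called members (at most 6 per comparison, the 3 highest and 3 lowest) and for Psmb5, Psmb6 and Psmb7; other members are given by ranges and counts or as examples.

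Numbers in the titles and in the descriptions were checked as pairings through the correlation of same-numbered arrays' deviations from their group means. Description numbers gave 0.16 to 0.50 in all 4 pairs of the 1-day surgery groups. For numbers 3 and 5, however, the MCAO array correlated more highly with another sham array. The labels do not say what these numbers mean. Pairs therefore entered only an alternative model, and the reported values come from the model without pairs. At 3 and 7 days and for title numbers at least 1 pair was at 0.1 or below. Alternatives were other filters, probe set choices, scalings, variances, thresholds, blocks and left-out arrays. Chosen after seeing the data were the brighter or dimmer arrays alone or as a covariate, members without Psma8, Psmb11, Psmc3ip and Psme3ip1, and all members without LPS array 5. Promoters came from a RefSeq table of GRCm38.p6.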

Additional observations from a re-analysis of the deposited data

Results flagged for a closer look

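Of 44 sets of 4 or 5 arrays examined, 7 held an array far from the others of its group. For a single set chance alone gives about 1 in 20. The 44 sets reuse the same arrays and are not independent, so the 7 cannot be set against that rate. MCAO array 2 of 1 day stood low in 3 of the 7. Its mean over the core members, each centred on its mean over the 30 arrays, was -0.02, against 0.25 to 0.33 on the other MCAO arrays. Its mean over the regulatory particle members was 0.14, against 0.48 to 0.55 on the others. Its Psmb7 value was 10.93, against 11.73 to 11.93 on the others. Without this array the members' median difference at 1 day was 0.54.

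Among the sham arrays of 1 day, array 2 had a Psmb6 value of 10.78, against 10.63 to 10.65 on the others, and array 3 had a Psmd12 value of 10.12, against 9.93 to 9.95. LPS array 5 had a Psmb5 value of 10.69, against 11.86 to 12.11 on the other LPS arrays. Saline array 1 had a core minus regulatory particle value of -0.19, against 0.03 to 0.07 on the other saline arrays.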

How the results depend on the processing

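After MCAO at 1 day, 8 members were called; the count was 27 with the compared groups alone (32.9% of all genes called), 31 with array weights (39.2%), 14 on the brighter arrays alone (16.9%), 13 without LPS array 5 in the whole fit (18.7%), and 4 at an adjusted p under 0.01 (6.97%). It was 3 with the description numbers as a replicate block (7.32% of the members and of all genes). It was 10 with the title numbers as a block (16.7%), and 5 to 6 when each array was left out in turn (8.69% to 12.2%). These shares of all genes count both directions. Core minus regulatory particle (-0.19) was -0.05 with the mean of a gene's probe sets, -0.26 with probe sets not marked as shared, and -0.23 to -0.16 with arrays left out. After LPS, 2 members were called, where 489 of 15726 genes were, counting both directions. The count of members was 0 with the compared groups alone (65 genes called), on the dimmer arrays alone (117) and on the brighter arrays alone (368). With all arrays, 10 members had an unadjusted p under 0.05 in limma. After median centring 1 member was called (2.66% of all genes), as at an adjusted p under 0.01 (197 genes). Array weights called 13 members (10.6% of all genes). With arrays left out the count was 0 to 7. It was 0 without saline array 4 (225 genes called), 4 without saline array 1 (623) and 7 without LPS array 4 (804). Core minus regulatory particle after LPS was -0.27 to -0.03 with arrays left out, the lowest without saline array 1. Array weights called 3 members at 3 days (7.32%, against 12.3% of all genes), and 4, 1 and 13 for the MCAO effect against the LPS effect (13.5%), for 3 days against 1 day (1.65%) and for 7 days against 1 day (20%); the compared groups alone called 7 for 7 days against 1 day (9.77%). At 3 days core minus regulatory particle was -0.11 on the dimmer and 0.29 on the brighter arrays.

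The sign of some catalytic subunits turned. Psmb6 after LPS was 0.16 with array weights, 0.09 with the title numbers as a block, 0.09 without LPS array 5 in the whole fit and -0.29 to 0.09 with arrays left out. Psmb7 after LPS was -0.63 and Psmb5 -0.14 on the dimmer arrays, and Psmb7 was -0.19 to 0.87 with arrays left out and 1.28 with array weights. Psmb5 at 3 days was -0.23 on the brighter pair. With arrays left out at 7 days, Psmb7 was -0.41 to 0.13 and Psmb6 -0.06 to 0.18. The title numbers gave negative correlations in some pairs; with them as a block no other count of members moved by over 1.5 times, while the share of all genes called was 0.0636% in place of 0.674% at 3 days and 0.00636% in place of 0.0254% at 7 days. With the description numbers as a block these shares were 0.153% at 3 days and 0.00636% at 7 days. The share of all genes at 3 days was 12.3% with array weights, 5.51% on the dimmer arrays and 0% with the compared groups alone. The cause of these shifts was not tested, beyond the fewer arrays, blocks, weights and variances by which these models differ. The other 277 values of the counts and of core minus regulatory particle under alternatives stayed close to those reported. Close means a count within 1.5 times, or a gap within the pooled SD of the per-array value. That SD was 0.045 at 1 day, 0.11 at 3 and 7 days and 0.15 after LPS. The 12 members called at 1 day with quantile normalisation thus count as close. So do gaps that changed sign with arrays left out, at 3 days (-0.03 to 0.08) and 7 days (-0.1 to 0.07).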

Other observations

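Psmd13, a lid subunit, has 4 probe sets above the filter, and 1 of them went against the others at 1 day after MCAO. The probe set with the highest mean differed by 0.39 and was not called. A dimmer probe set with a mean of 7.39 differed by -1.26 (adjusted p = 0.00413 over 35730 probe sets, limma), and by -1.39 at 3 days (adjusted p = 0.0707), 0.21 at 7 days and -0.17 after LPS. With probe sets not marked as shared it stands for the gene, and 6 members were then called higher and 1 (Psmd13) lower at 1 day. It was singled out after its values were seen.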
